A study of Mus musculus with 6 samples.

Results

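Glycolysis splits glucose into pyruvate in the cytosol, and lactate dehydrogenase interconverts pyruvate and lactate at its end. In the ovary the pathway is known to be divided between cell types: oocytes take up and oxidise pyruvate and use glucose poorly, while the granulosa cells around them carry out glycolysis and pass its products to the oocyte. Mouse oocytes are known for a lactate dehydrogenase made mostly of the B subunit. Described here are 10 genes of this route, chosen by name among the 47122 gene models of the deposited table: the glucose transporter gene Slc2a1, the hexokinase genes Hk1 and Hk2, the phosphofructokinase genes Pfkl and Pfkp, Aldoa, Pgk1, Pkm, and the lactate dehydrogenase genes Ldha and Ldhb. All 10 were found, and 9 of them passed the filter on low values, with Pfkp below it.

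The samples were whole ovaries of mice at 1 day post partum (dpp), profiled by sequencing of total RNA. The BCAS2 cKO group (conditional knockout, cKO) held 3 samples with an oocyte deletion of Bcas2, whose protein belongs to the PRP19 splicing complex, and the WT group held 3 wild-type samples. The sources used here give neither the driver of the deletion nor the strain, nor whether a sample was a single animal or a pool. The p-values therefore cover only the spread between these samples, which may be technical. A sample description speaks of granulosa cells, whereas the titles and tissue label give ovary. Of the 15 oocyte markers 15 passed the filter on low values, and of the 15 pregranulosa markers 14 did, so genes of both cell types were present in the libraries. Between 16800421 and 19565275 reads per library were recovered from the deposited values.

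Values are FPKM, in which fragment numbers are divided by gene length and sequencing depth, as deposited. Bcas2 was at 18.9, 21.9 and 18.3 FPKM in the cKO ovaries and at 54.5, 37.5 and 35.7 FPKM in the WT ovaries, without overlap (log2 fold change −1.05, SE 0.17, limma p adjusted over all genes 0.955). All fold changes are cKO over WT on the log2(FPKM + 1) scale, which understates the change of genes with low values, and were tested with limma over all 14589 genes that passed the filter. In bulk tissue, fewer cells of a type and less RNA per cell cannot be told apart, so a level here is that of the whole ovary and not of its oocytes.

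None of the 10 genes separated the groups. Of the 9 tested genes, 0 rose, 0 fell and 9 did not pass at an adjusted p under 0.05, where 0.0% of all tested genes rose and 0.0% fell. At an unadjusted p under 0.05 the count was also 0 of 9, where 3.04% of all genes tested, 443, reached it (276 higher and 167 lower in cKO, against 171 and 260 after rescaling to TPM). The groups overlapped for each of the 9, a count near the background. Over all tested genes, 7.88% had groups that did not overlap (4.2% higher and 3.67% lower in cKO). That split of 613 higher and 536 lower was 341 and 868 after rescaling to TPM and 839 and 368 with limma-voom. By log2 fold change 5 were higher and 4 lower in cKO, with a median of 0.005, beside −0.006 for all genes tested, which became −0.08 after rescaling to TPM. Limma-voom on the recovered reads also called 0 genes over the whole table, with 379 at an unadjusted p under 0.05. Without cKO replicate 2, limma called 1 gene in the whole table, the processed pseudogene Pcna-ps2 (adjusted p = 0.0177), which is not in the pathway.

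**Figure D1:**
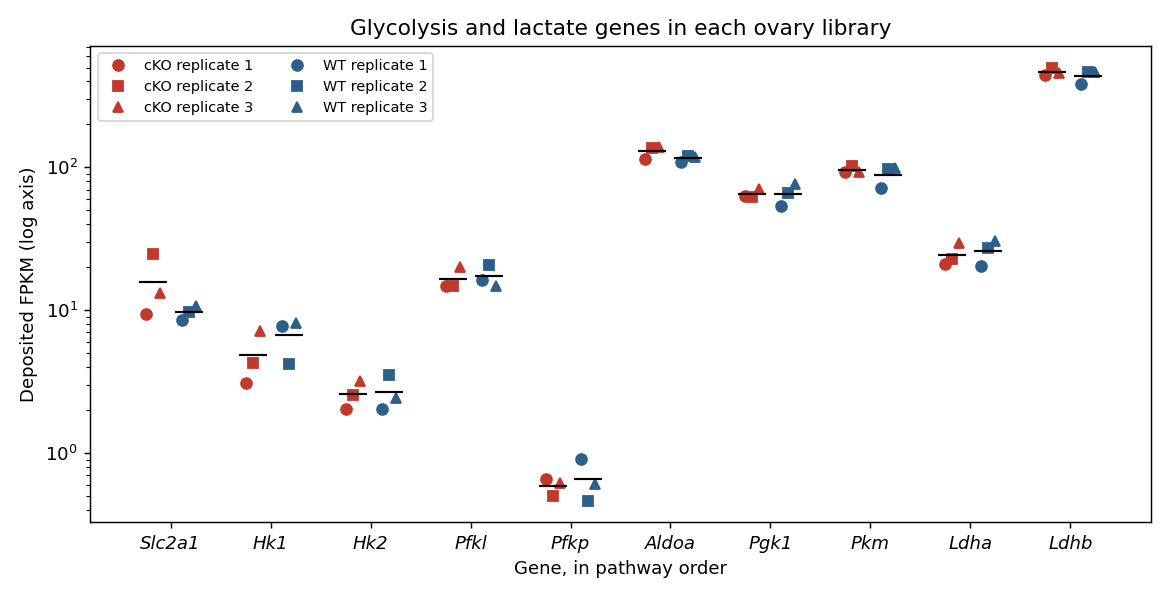
Deposited FPKM of the 10 genes (log axis) in each library, in pathway order, with cKO libraries in red to the left of WT libraries in blue and a bar at each group mean. The groups overlap for every gene, Slc2a1 stands apart in cKO replicate 2 at 24.6 FPKM, and levels span from below 1 FPKM for Pfkp to 499.5 FPKM for Ldhb.

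Glucose enters through Slc2a1, which encodes GLUT1, the widespread facilitative glucose transporter (gene identifier 20525, chr4:118965942-118994527 on the plus strand, GRCm39). It was at 9.46, 24.6 and 13.1 FPKM in the cKO ovaries and at 8.60, 9.71 and 10.7 FPKM in the WT ovaries. cKO replicate 2 was the highest by far, cKO replicate 3 came next, and cKO replicate 1 lay inside the WT range. The group means were 15.7 ± 7.88 FPKM in cKO and 9.66 ± 1.04 FPKM in WT (SD, n = 3 each). The log2 fold change of 0.55 was the largest among the 9 tested genes, with an SE of 0.31, a 95% interval from −0.17 to 1.28 and a limma adjusted p of 0.955, and the exact two-sided permutation test gave p = 0.3. Without cKO replicate 2 the fold change was 0.20 (SE 0.17), and without cKO replicate 1 it was 0.84.

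The 3 libraries with the most Slc2a1 were also the 3 with the most red blood cell RNA. The 12 erythroid genes (globins, red cell membrane genes and other red cell genes), of which 12 were tested and 0 were listed at 0 throughout, summed to 754.6, 13826 and 1308 FPKM in the cKO ovaries and to 461.3, 556.0 and 1295 FPKM in the WT ovaries. cKO replicates 2 and 3 and WT replicate 3 were the highest for both Slc2a1 and the erythroid sum, in the same order, and WT replicate 1 was the lowest for both. cKO replicate 1 and WT replicate 2 were in opposite order for the pair of measures. Slc4a1, the red cell anion exchanger, was at 116.9 FPKM in cKO replicate 2 and at no more than 9.68 FPKM in any other library. The part of erythroid RNA in the Slc2a1 difference was not tested.

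**Figure D2:**
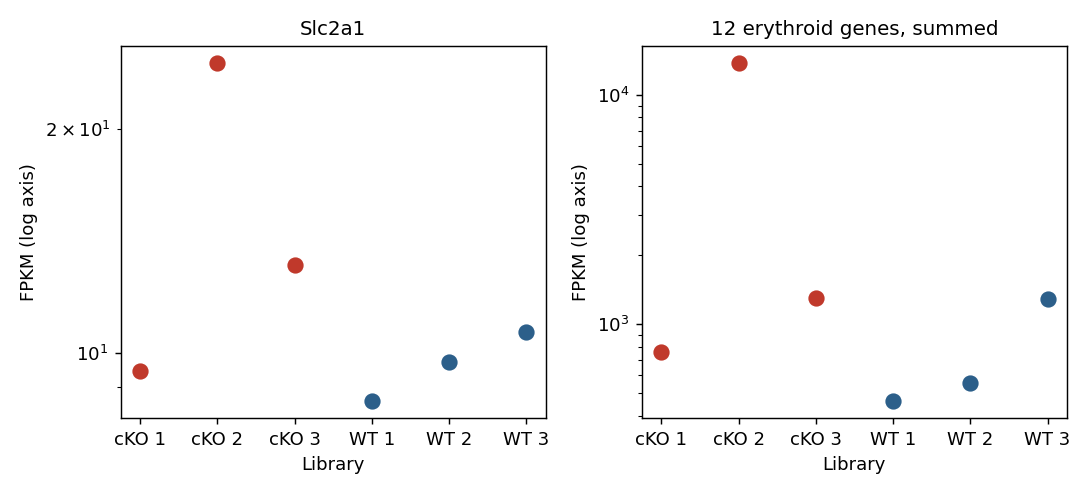
FPKM (log axes) of Slc2a1 on the left and of 12 erythroid genes summed on the right, in each cKO (red) and WT (blue) library. In both panels cKO replicate 2 is the highest, at 24.6 FPKM for Slc2a1 against 8.60 to 13.1 FPKM in the other 5 libraries, and at 13826 FPKM for the erythroid genes against 461.3 to 1308 FPKM.

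Hexokinases trap glucose in the cell by phosphorylating it. Hk1, the form found in most tissues (15275, chr10:62104634-62215699, minus strand), was at 3.09, 4.30 and 7.11 FPKM in the cKO ovaries and at 7.81, 4.23 and 8.19 FPKM in the WT ovaries. High values of 7 FPKM or more and values near 4 FPKM or less both occurred within each group, so the spread inside a group was as wide as the distance between groups. The log2 fold change was −0.42 (SE 0.31, 95% interval −1.16 to 0.31, limma adjusted p = 0.955), with 4.83 ± 2.06 FPKM in cKO and 6.75 ± 2.18 FPKM in WT (SD, n = 3 each). It ranged from −0.69 without cKO replicate 3 to −0.20 without cKO replicate 1. The antisense RNA Hk1os lies within Hk1 on the opposite strand, at 0.118 to 0.471 FPKM, and the sources used here do not say whether counting used the strand.

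Hk2, the insulin- and growth-responsive hexokinase (15277, chr6:82702004-82751435, minus strand), was lower than Hk1 in all 6 libraries. It stood at 2.05, 2.55 and 3.20 FPKM in the cKO ovaries and at 2.05, 3.55 and 2.41 FPKM in the WT ovaries. The cKO values lay wholly inside the WT range. Its log2 fold change was −0.02 (SE 0.20, 95% interval −0.49 to 0.46), and it rests on 214 to 370 recovered reads per library. The ratio of Hk1 to Hk2 inside a library was 1.51, 1.69 and 2.22 in cKO and 3.82, 1.19 and 3.39 in WT. The WT ratios were spread on both sides of the cKO ratios, and the exact two-sided permutation test of the log2 ratio gave p = 0.4 (0.6 adjusted over the 3 isoenzyme ratios tested, and 0.1 is the smallest that 3 against 3 allows). The difference of −0.49 in mean log2 ratio was −1.02 without WT replicate 2 and −0.18 without WT replicate 1. WT replicate 2 held the only WT ratio below those of cKO, so leaving it out was bound to separate the groups. The exact permutation p was then 0.1 (unadjusted), the smallest that 3 against 2 allows.

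Phosphofructokinase makes the committed step of glycolysis, and its subunits come from a liver (Pfkl), a muscle (Pfkm) and a platelet (Pfkp) gene. Pfkl (18641, chr10:77822781-77845641, minus strand) was at 14.9, 14.8 and 20.1 FPKM in the cKO ovaries and at 16.2, 20.6 and 14.9 FPKM in the WT ovaries. A single library of each group stood near 20 FPKM, with the others at 14.8 to 16.2 FPKM. The log2 fold change was −0.05 (SE 0.17, 95% interval −0.44 to 0.34). Pfkm, taken from the list of other glycolytic enzymes after its values were seen, was at a like level, 16.3 ± 1.35 FPKM in cKO and 16.1 ± 1.05 FPKM in WT (SD, n = 3 each).

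Pfkp (56421, chr13:6629910-6699096, minus strand) was the least abundant of the 10 genes. It was at 0.656, 0.5001 and 0.620 FPKM in the cKO ovaries and at 0.912, 0.465 and 0.609 FPKM in the WT ovaries, below 1 FPKM in all 6 libraries and therefore outside the main test. The cKO values again lay inside the WT range. These levels still rest on 95 to 187 reads per library, because the deposited length of the gene is 11760 bases. In a limma fit without the filter its log2 fold change was −0.05 (SE 0.14). Pfkl exceeded Pfkp 22.7-, 29.7- and 32.4-fold in cKO and 17.8-, 44.3- and 24.4-fold in WT, with overlapping groups (exact two-sided permutation p = 1, also after adjustment over the 3 ratios). Pfkp overlaps Pitrm1 on the opposite strand by 285 bases, and Pitrm1 was at 18.2 to 27.7 FPKM.

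Aldolase A cuts fructose bisphosphate into trioses. Aldoa (11674, chr7:126394406-126400166, minus strand) was at 115 FPKM in cKO replicate 1, 136 in cKO replicate 2 and 139 in cKO replicate 3, against 109 in WT replicate 1, 121 in WT replicate 2 and 119 in WT replicate 3. A pair of cKO libraries lay above all WT libraries, and the third lay among them. The means were 129.9 ± 13.2 FPKM in cKO and 116.3 ± 6.03 FPKM in WT (SD, n = 3 each), and the log2 fold change of 0.15 (SE 0.11, 95% interval −0.11 to 0.42, limma adjusted p = 0.955) did not pass. It was 0.074 after rescaling to TPM and 0.24 without cKO replicate 1. Aldoa had the narrowest interval of the 9 tested genes.

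Pgk1 encodes phosphoglycerate kinase, which makes the first ATP of the pathway (18655, chrX:105230706-105247305, plus strand). It was at 62.7, 62.1 and 70.6 FPKM in the cKO ovaries and at 53.5, 66.4 and 76.6 FPKM in the WT ovaries. The WT libraries held both the lowest and the highest value, and the means were nearly equal, 65.1 ± 4.70 FPKM in cKO and 65.5 ± 11.6 FPKM in WT (SD, n = 3 each). The log2 fold change was 0.005 (SE 0.14, 95% interval −0.34 to 0.35), and −0.08 after rescaling to TPM.

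Pyruvate kinase, encoded by Pkm, makes pyruvate and a further ATP (18746, chr9:59563859-59586655, plus strand). Pkm was at 92.6, 102.8 and 93.0 FPKM in the cKO ovaries and at 71.4, 97.5 and 98.4 FPKM in the WT ovaries. WT replicate 1 was lower than all other libraries, which lay within 92.6 to 102.8 FPKM. The log2 fold change was 0.12 (SE 0.14, 95% interval −0.22 to 0.46, limma adjusted p = 0.955), and −0.03 without WT replicate 1. The gene is known for a pair of mutually exclusive exons that give the M1 and M2 enzymes, a choice made by the splicing regulators Ptbp1, Hnrnpa1 and Hnrnpa2b1. Gene totals do not show which exon was used, so M1 and M2 were not measured.

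Regulators of that exon choice ranged widely in level. In a list of 6 Pkm splicing regulators, 0 of the 5 tested genes rose and 0 fell (median log2 fold change −0.02). Hnrnpa1 was at 215.8 ± 12.5 FPKM in cKO and 233.1 ± 11.5 FPKM in WT, and Hnrnpa2b1 at 181.4 ± 11.9 FPKM in cKO and 167.2 ± 7.14 FPKM in WT (SD, n = 3 each). Ptbp1 was at 82.1 ± 7.46 FPKM in cKO and 96.4 ± 15.4 FPKM in WT, with a log2 fold change of −0.22 (SE 0.14). Srsf3, an SR protein that favours the M2 exon, was at 114.6 ± 10.1 FPKM in cKO and 104.4 ± 10.2 FPKM in WT. Of the others in the list, singled out after their values were seen, Nek2 was at 4.57 to 6.36 FPKM and Rbm4 at 0.0199 to 0.0636 FPKM, on 1 to 3 reads.

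**Figure D3:**
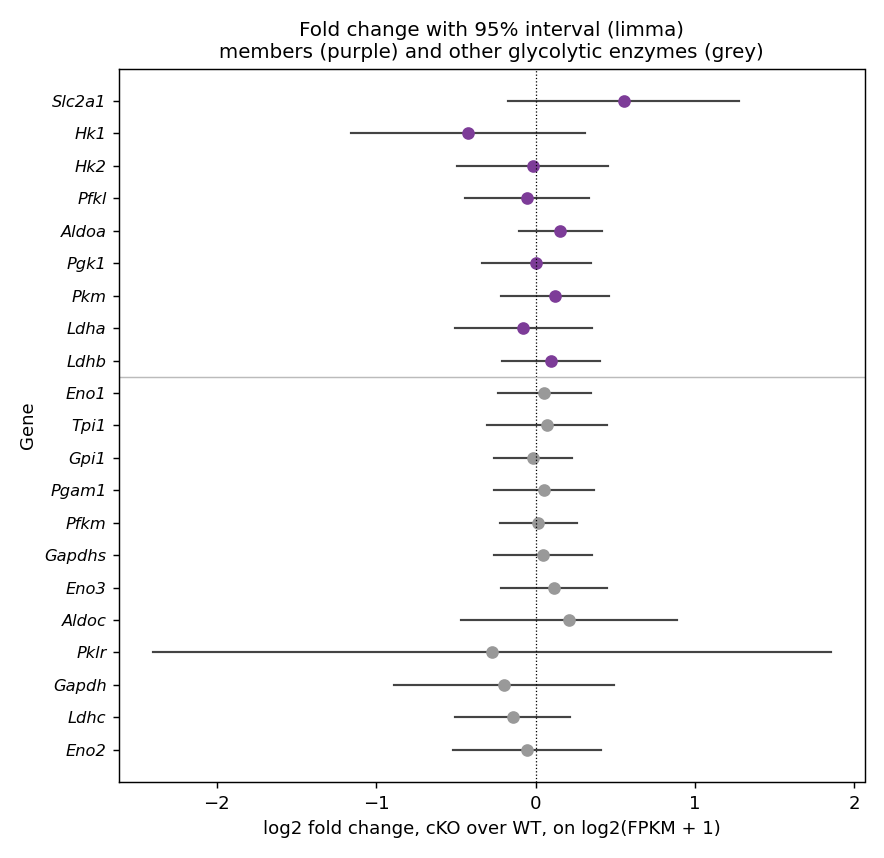
Log2 fold change of cKO over WT on log2(FPKM + 1) with its 95% interval from limma (n = 3 each), for the 9 tested genes described here (purple) and 12 other glycolytic enzymes (grey). Every interval includes 0, and the intervals are widest for Pklr and, among the genes described here, for Hk1 and Slc2a1.

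Lactate dehydrogenase is a tetramer of A and B subunits. Ldhb (16832, chr6:142435975-142453683, minus strand) was the most abundant of the 10 genes, at 446.7, 499.5 and 460.6 FPKM in the cKO ovaries and at 383.0, 467.8 and 466.3 FPKM in the WT ovaries. WT replicate 1 was again the lowest, and the other 5 libraries lay within 446.7 to 499.5 FPKM. The log2 fold change was 0.10 (SE 0.13, 95% interval −0.21 to 0.41, limma adjusted p = 0.955), and 0.004 without WT replicate 1.

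Ldha, the subunit gene of muscle and of glycolytic cells (16828, chr7:46491698-46505051, plus strand), was far lower. It stood at 21.1, 23.0 and 29.6 FPKM in the cKO ovaries and at 20.4, 27.3 and 30.3 FPKM in the WT ovaries. All cKO values lay within the WT range, and the log2 fold change was −0.08 (SE 0.18, 95% interval −0.51 to 0.35, limma adjusted p = 0.977). Inside a library Ldha was 0.0471, 0.0460 and 0.0643 of Ldhb in cKO and 0.0534, 0.0584 and 0.0650 of Ldhb in WT. The mean log2 ratio was −4.27 ± 0.27 in cKO and −4.09 ± 0.14 in WT (SD, n = 3 each), with overlapping groups and an exact two-sided permutation p = 0.3 (0.6 adjusted over the 3 ratios).

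The size of the gap between the subunits depends on the gene length used. The deposited length of Ldha is 5342 bases, 3.02 times the 1766 bases of its principal transcript in GENCODE M21 (the longest CCDS transcript with the best APPRIS tag), while that of Ldhb, 1304 bases, equals its principal transcript. With deposited lengths Ldhb exceeded Ldha 15.4- to 21.7-fold over the 6 libraries, and with principal transcript lengths, a scale chosen after seeing the data, 5.08- to 7.18-fold. Ldhb was thus the higher subunit gene in all 6 libraries under both lengths. The table also holds 21 pseudogene rows that carry the Ldha protein name, with 27 to 61 reads in all per library, at most 2.71% of those of Ldha. The sources used here do not say how reads that match both a gene and its pseudogenes were counted, so the level of Ldha is uncertain.

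The start regions of both subunit genes and of Pgk1 are shown because Ldha and Ldhb catalyse the same reaction at such different levels, and because Pgk1 is the gene nearest to Ldha in level per principal transcript. Each sequence is the 250 bases before the RefSeq transcription start (GRCm38.p6, a different build from the coordinates above), 5′ to 3′ on the gene's strand. Capitals mark ACGTG, a form of the core (A or G, then CGTG) of the element bound by hypoxia-inducible factors, searched on both strands. The form GCGTG was not searched or marked, and the printed Ldhb window holds it in lower case. The letters ACGTG are part of CACGTG, an E-box bound by MYC and USF proteins, which counts on both strands. RefSeq gives 2 start windows for Ldha, and the one with the motif is printed. The windows are chr7:46845554-46845803 (plus strand) for Ldha, chr6:142507958-142508207 (minus strand) for Ldhb and chrX:106186850-106187099 (plus strand) for Pgk1.
Ldha: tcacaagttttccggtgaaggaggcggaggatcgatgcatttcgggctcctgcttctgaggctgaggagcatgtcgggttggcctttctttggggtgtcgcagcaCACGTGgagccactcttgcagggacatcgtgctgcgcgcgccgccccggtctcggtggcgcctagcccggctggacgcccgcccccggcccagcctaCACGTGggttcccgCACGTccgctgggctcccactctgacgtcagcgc
Ldhb: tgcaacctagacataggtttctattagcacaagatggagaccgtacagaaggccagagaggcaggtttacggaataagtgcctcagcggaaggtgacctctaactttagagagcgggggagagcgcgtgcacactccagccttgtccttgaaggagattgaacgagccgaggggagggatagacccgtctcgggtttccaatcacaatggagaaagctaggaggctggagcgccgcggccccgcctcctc
Pgk1: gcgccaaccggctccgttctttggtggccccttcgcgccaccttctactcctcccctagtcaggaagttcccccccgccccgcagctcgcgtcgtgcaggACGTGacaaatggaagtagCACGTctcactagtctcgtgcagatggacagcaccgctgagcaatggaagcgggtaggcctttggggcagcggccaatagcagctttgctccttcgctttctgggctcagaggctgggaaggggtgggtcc

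The printed Ldha window held the motif in 3 places, 2 of them the palindrome, while the other Ldha window (chr7:46846832-46847081) held it in 0. The Pgk1 window held it in 2 places and the Ldhb window in 0, with GCGTG not counted. RefSeq gave 15 windows for the 10 genes, and 7 of the 15 held the motif, beside 16.6% of all 32851 windows of the same length. These 7 belong to Slc2a1, Hk2, Aldoa, Pgk1, Pkm and Ldha, of which Aldoa, Pkm and Ldha each also have a window without it. The Aldoa windows chr7:126799255-126799504 and chr7:126799179-126799428 overlap and hold the same site, which the 7 thus count more than once. Of all windows, 0.134% held it as often as the printed Ldha window when both strands are counted. A match of letters is a description and not a site in use. In a list of hypoxia response genes, 0 of the 18 tested rose and 0 fell (median log2 fold change −0.04). Hif1a, the oxygen-regulated factor subunit, was at 45.7 ± 6.70 FPKM in cKO and 50.1 ± 4.66 FPKM in WT, and Ddit4, a target of hypoxia and stress that restrains mTORC1, at 55.4 ± 6.72 FPKM in cKO and 44.8 ± 7.26 FPKM in WT (SD, n = 3 each). Egln1, an oxygen-sensing prolyl hydroxylase gene, was at 34.2 ± 4.02 FPKM in cKO and 34.9 ± 3.83 FPKM in WT, and Adm, which encodes the vasodilator adrenomedullin, at 0.849 ± 0.353 FPKM in cKO and 1.21 ± 0.281 FPKM in WT.

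The genes differed more from each other than between the groups. Averaged over the 6 libraries, the deposited levels ran Ldhb (454 ± 38.8 FPKM), Aldoa (123.1 ± 11.8), Pkm (92.6 ± 11.1), Pgk1 (65.3 ± 7.89), Ldha (25.3 ± 4.35), Pfkl (16.9 ± 2.71), Slc2a1 (12.7 ± 6.02), Hk1 (5.79 ± 2.17), Hk2 (2.64 ± 0.617) and Pfkp (0.627 ± 0.158; SD, n = 6 each). The ranges of Pkm and Pgk1, of Ldha and Pfkl, of Pfkl and Slc2a1 and of Hk1 and Hk2 overlapped between libraries, and the other neighbours in this order did not. Inside a library the order held in all 6 for each neighbouring pair except Pfkl and Slc2a1, which held in 5. By these means the enzymes from aldolase down lay above the transporter, the hexokinases and the phosphofructokinases, but in cKO replicate 2 Slc2a1 (24.6 FPKM) lay above Ldha (23.0 FPKM).

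With principal transcript lengths the levels of Pkm, Ldha and Pfkp are 3.16, 3.02 and 2.84 times higher, since their deposited lengths are that much longer. Pkm then stood second at 292.7 ± 35.0, above Aldoa at 197.1 ± 18.9, and Ldha stood next after them at 76.5 ± 13.2, with a range that overlapped that of Pgk1 (SD, n = 6, FPKM recomputed per kilobase of principal transcript). The ratio of cKO to WT FPKM of a gene does not depend on the length. Reads outside the principal transcript would make these levels too high.

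**Figure D4:**
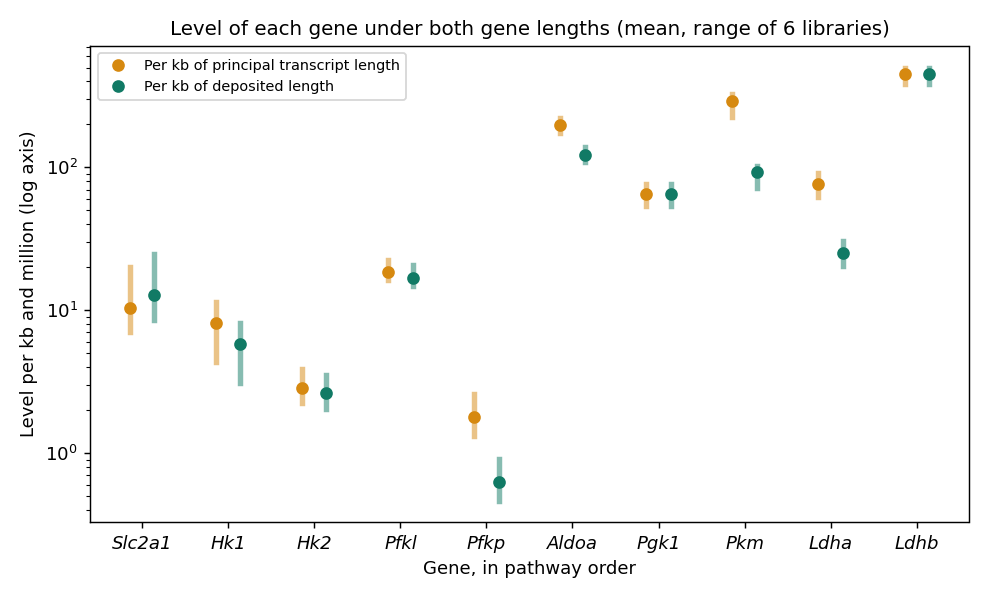
Level of each gene in FPKM (log axis), as the mean (points) and range (bars) of the 6 libraries, per kilobase of the principal transcript (orange) and of the deposited gene length (green). Pkm, Ldha and Pfkp sit about 3 times higher on the principal transcript scale, whereas Ldhb and Pgk1 do not move.

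Across libraries, 7 of the 10 genes had their lowest value in WT replicate 1: Slc2a1, Hk2, Aldoa, Pgk1, Pkm, Ldha and Ldhb. Hk1 and Pfkp were not low there, and Pfkp had its highest value in that library. The mean of the 9 tested genes, each centred on its own mean, was −0.19, 0.09 and 0.17 on the log2 scale in the cKO libraries and −0.18, 0.03 and 0.08 in the WT libraries. A low library and higher ones were thus found in each group.

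WT replicate 1 also stood apart in several sets of tissue markers, though not in the sum of the pregranulosa markers. The 15 endothelial markers summed to 238.3 FPKM there and to 54.9 to 83.5 FPKM in the other 5 libraries, and the 12 stroma markers to 1578 FPKM against 455.0 to 735.8 FPKM. The 12 surface epithelium markers summed to 503.6 FPKM there, against 837.9 to 1026 FPKM, and the 15 oocyte markers to 1258 FPKM, against 1487 to 2130 FPKM. All oocyte markers but Ddx4, Dazl, Lhx8, Gdf9 and Kit had their lowest value in that library. By group, endothelial markers summed to 63.5 to 83.5 FPKM in cKO and 54.9 to 238.3 FPKM in WT, and oocyte markers to 1487 to 1832 FPKM in cKO and 1258 to 2130 FPKM in WT. The 15 pregranulosa markers summed to 963 FPKM in WT replicate 1, with 824.9 to 991.6 FPKM in cKO and 770.8 to 988.2 FPKM in WT. Singly, Foxl2, Kitl, Wnt4, Irx5, Gata4, Nr2f2, Emx2 and, below the filter, Fshr were highest in that library. Lgr5, Krt19 and Amhr2 were lowest there, and Rspo1, Fst, Irx3 and the gene Wt1 were neither. Foxl2 was at 163.2 FPKM there against 82.3 to 105.7 FPKM in the other 5, and Krt19 at 43.2 against 105.2 to 147.5 FPKM. None of the markers in these lists was listed at 0 in all libraries, and their part in the low values of WT replicate 1 was not tested.

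**Figure D5:**
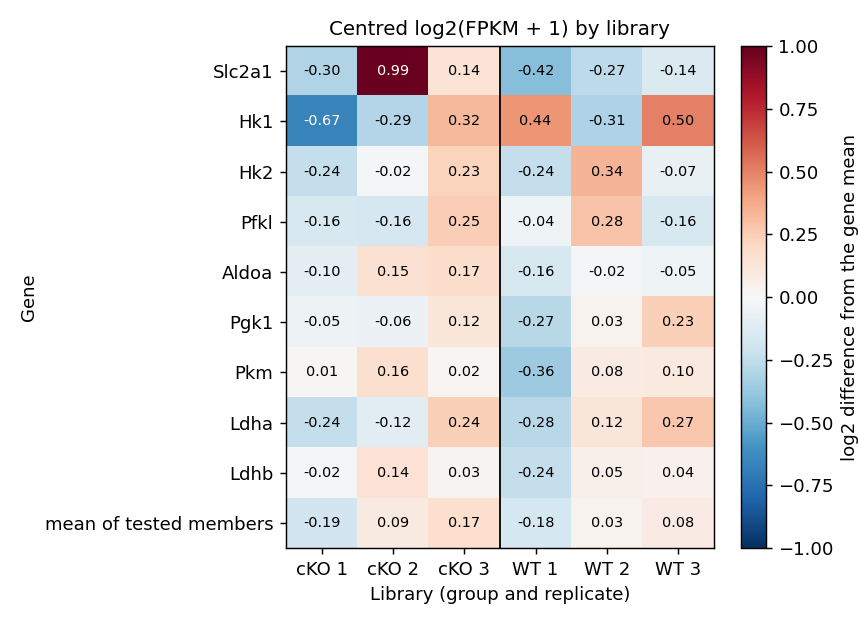
Log2(FPKM + 1) of the 9 tested genes in each library as the difference from the gene's mean over the 6 libraries, with cKO libraries left of the line and WT libraries right of it. WT replicate 1 is low (blue) for most genes but not for Hk1 (0.44), and Slc2a1 reaches 0.99 in cKO replicate 2.

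The genes whose library profile was most like that mean, by the root mean square difference of centred log2(FPKM + 1) over the 6 libraries among 6356 protein-coding genes of at least 10 FPKM, were Gtse1 (0.036), a mitotic spindle protein gene, Oaz1 (0.038), which encodes ornithine decarboxylase antizyme, Rhog (0.042), a small GTPase gene, Hnrnpab (0.046), an RNA-binding protein gene, and 2810004N23Rik (0.046). Oaz1 was at 301.3, 358.3 and 373.7 FPKM in the cKO ovaries and at 304.0, 329.1 and 366.3 FPKM in the WT ovaries, with the same pair of low libraries.

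The rest of the pathway gave no call. Among 20 other glycolytic enzyme genes, 0 of the 12 tested rose and 0 fell (median log2 fold change 0.03). Eno1, the widespread enolase, was at 126.7 ± 8.66 FPKM in cKO and 122.3 ± 15.4 FPKM in WT, Tpi1, triosephosphate isomerase, at 105.0 ± 8.24 FPKM in cKO and 101.0 ± 20.3 FPKM in WT, and Gpi1, glucose phosphate isomerase, at 84.5 ± 6.805 FPKM in cKO and 85.4 ± 5.93 FPKM in WT (SD, n = 3 each). The smallest p-values of this list belonged to Ldhc, the testis-type lactate dehydrogenase (log2 fold change −0.14, SE 0.15), and Eno3, the muscle enolase (0.11, SE 0.14), each with a limma adjusted p of 0.955. Gapdh, singled out after its values were seen, was at only 1.09 to 3.68 FPKM, while the 259 pseudogene rows carrying its protein name held 415 to 517 reads per library against 37 to 111 for Gapdh itself. These Gapdh values are therefore uncertain as levels of the gene.

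Among 17 glucose and lactate transport genes, 0 of the 8 tested rose and 0 fell (median log2 fold change 0.12). Bsg, the chaperone of the monocarboxylate transporters, was at 234.5 ± 24.4 FPKM in cKO and 209.6 ± 27.1 FPKM in WT. Slc16a1, which encodes the lactate and pyruvate carrier MCT1, was at 15.7 ± 4.01 FPKM in cKO and 14.7 ± 3.18 FPKM in WT, and Slc16a3, which encodes the lactate exporter MCT4, at 9.59 ± 1.29 FPKM in cKO and 9.59 ± 1.14 FPKM in WT (SD, n = 3 each). The genes of smallest p were the glucose transporter genes Slc5a2 (log2 fold change 0.29, SE 0.20) and Slc2a4 (0.29, SE 0.24).

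The pyruvate list holds the mitochondrial pyruvate carrier, the pyruvate dehydrogenase complex, its kinases and phosphatases, and pyruvate carboxylase. Among its 14 genes, all tested, 0 rose and 0 fell (median log2 fold change −0.06). The groups did not overlap for 1 of the 14, Pdha1, which encodes a catalytic subunit of the complex, beside 7.88% of all genes tested, so the count is near the background. Pdha1 was at 16.6, 13.1 and 15.3 FPKM in the cKO ovaries and at 19.9, 17.0 and 16.8 FPKM in the WT ovaries, a narrow gap. Limma put the difference at −0.24 on the log2 scale (SE 0.12, adjusted p = 0.955). Mpc2, a subunit of the mitochondrial pyruvate carrier, was at 48.6 ± 11.2 FPKM in cKO and 38.9 ± 3.92 FPKM in WT, Dld at 91.5 ± 4.36 FPKM in cKO and 92.8 ± 15.7 FPKM in WT, and Pdhb at 69.2 ± 3.78 FPKM in cKO and 63.9 ± 7.24 FPKM in WT (SD, n = 3 each).

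The side branches gave no call either. Among 10 pentose phosphate genes, all tested, 0 rose and 0 fell. The median log2 fold change was 0.07, but −0.011 after rescaling to TPM and −0.042 without WT replicate 1. Tkt, transketolase, was at 137.6 ± 15.5 FPKM in cKO and 130.4 ± 18.5 FPKM in WT, Taldo1, transaldolase, at 88.6 ± 13.9 FPKM in cKO and 85.4 ± 17.1 FPKM in WT, and Pgls at 76.2 ± 11.9 FPKM in cKO and 64.3 ± 10.99 FPKM in WT (SD, n = 3 each). Pgd, which makes NADPH in the oxidative branch, was at 46.3 ± 2.17 FPKM in cKO and 42.6 ± 4.57 FPKM in WT. Among the genes that make or remove the fructose bisphosphate isomer known to activate phosphofructokinase, which is not the substrate of aldolase, 0 of 5 passed (median 0.006), with Tigar, a p53-induced phosphatase, at 5.09 ± 0.816 FPKM in cKO and 4.44 ± 0.457 FPKM in WT. The bifunctional kinase and phosphatase genes Pfkfb2 (3.93 ± 0.037 FPKM in cKO and 3.98 ± 0.225 FPKM in WT) and Pfkfb3 (2.79 ± 0.307 FPKM in cKO and 3.07 ± 0.5001 FPKM in WT) were close to it in level. Among 6 gluconeogenesis genes, 0 of the 2 tested passed, Pck2 at 21.2 ± 2.76 FPKM in cKO and 22.5 ± 0.866 FPKM in WT, and G6pc3 at 20.2 ± 1.69 FPKM in cKO and 20.9 ± 1.48 FPKM in WT.

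What the comparison could have shown is set by the intervals. The half-width of the 95% interval was 0.26 to 0.73 on the log2 scale for the 9 tested genes, with a median of 0.39 beside 0.35 for all genes tested. A p above the threshold does not show that levels were equal. For Ldhb, Aldoa, Pgk1 and Pkm, the intervals nevertheless lay within −0.34 to 0.46.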

How the data were processed

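RNA from 3 cKO and 3 WT ovary samples was compared, with groups and replicate numbers from the sample titles and columns matched through the sample descriptions. The authors deposited FPKM values with a gene length, symbol, biotype and GRCm39 accessions. Per the submitters' processing notes, HISAT2 2.0.5 was used, and mm10 and GRCm39 are both listed as builds. The sources used here do not give the counting tool, annotation, strand setting or filters. FPKM times length, divided by 1 step per library, gave whole reads (100% of checked values within 0.05 of a whole number), and these were used for depth and for limma-voom.

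Genes with at least 1 FPKM in at least 3 samples (14589) were tested as log2(FPKM + 1) in limma 3.58.1 (R 4.3.3; lmFit, eBayes with a trend, two-sided, Benjamini-Hochberg over all genes, threshold 0.05), after a test on simulated data. Of these, 508 had no symbol. The test on simulated data does not show that changes of the size seen here could be called. In the deposited data Bcas2, at a log2 fold change of −1.05, had a limma adjusted p of 0.955. Ratios inside a library were compared by exact permutation. The genes and lists were chosen with earlier results of these data known. From each list the 3 most abundant and the 2 tested genes of smallest p are named, and the 5 genes closest to the mean profile. One listed symbol was matched through a RefSeq synonym. Alternatives were a pseudocount of 0.1, no filter, a mean of at least 5 FPKM, TPM, median-of-ratios scaling, a replicate block, limma-voom, leaving out each sample and, added later, principal transcript lengths.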

Additional observations from a re-analysis of the deposited data

How the results depend on the processing

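None of the 9 tested genes passed the threshold under the 7 alternatives that keep all samples or when each sample was left out, with limma adjusted p of at least 0.602. Direction held in 60 of 62 values with all samples; Hk2 was 0.027 with limma-voom and Pgk1 −0.076 with TPM, and the cause was not tested. Leaving out single samples gave ranges of −0.14 to 0.15 for Hk2, −0.19 to 0.075 for Pfkl, −0.13 to 0.12 for Pgk1, −0.028 to 0.20 for Pkm, −0.23 to 0.038 for Ldha and −0.24 to 0.42 for the group difference of the Pfkl to Pfkp ratio, so these directions rest on single libraries. They gave 0.11 to 0.24 for Aldoa and −1.02 to −0.18 for the Hk1 to Hk2 ratio. The count of called genes was 0 to 1. With principal transcript lengths the mean log2 ratio was −2.58 in place of −4.18 for Ldha over Ldhb and 3.40 in place of 4.77 for Pfkl over Pfkp, by construction. The count at an unadjusted p under 0.05 was 443, against 1147 without a filter, 253 at a mean of at least 5 FPKM, and 253 to 1056 without single samples.

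Samples that share a replicate number did not deviate together (correlations of 0.22, 0.01 and −0.03 over genes for numbers 1, 2 and 3), so the number was not read as a pairing. With it as a replicate block 0 genes were called and 432 had an unadjusted p under 0.05, and cKO replicate 2 correlated best with WT replicate 3 (0.32). Short genes near 1 FPKM rest on few reads.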

Other observations

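The gluconeogenesis genes Pck1, Fbp1 and G6pc, singled out after their values were seen, were highest in WT replicate 1. Pck1, a gluconeogenic enzyme gene, was at 1.46 FPKM there and at no more than 0.0582 FPKM in the other 5 libraries, Fbp1 at 2.64 FPKM against 0.629 to 1.04 FPKM, and G6pc at 0.635 FPKM while it was listed at 0 in the other 5. Epas1, a hypoxia-inducible factor gene of endothelium, was at 15.1 FPKM in that library and at 2.62 to 3.37 FPKM in the others.

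Pklr, the liver and red cell pyruvate kinase, was at 0.110, 1.64 and 3.79 FPKM in the cKO ovaries and at 0.364, 0.567 and 10.6 FPKM in the WT ovaries. The 3 libraries with the highest Pklr, cKO replicates 2 and 3 and WT replicate 3, were also the 3 with the highest erythroid sum, though in another order.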
